A study of Rattus norvegicus with 15 samples.

Results

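Fabp4, Ucp1, Pparg, Adipoq, Cidea, Car3, Gpd1, Pck1, Lpl and Dgat2 are genes of brown and white fat, and their signals were followed in rat aorta and ductus arteriosus around birth. They are 10 of the 10969 named genes on the chips used. The 10 genes were selected on their measured values, as genes with a high signal in the newborn aorta, so their difference between the newborn aorta and the other vessels is a description and not a finding. All probe sets whose platform annotation names 1 of the 10 genes alone were read, which gave 20 of 26202 probe sets. The 5 states were newborn aorta and newborn ductus (3 h after vaginal delivery), ductus taken at day 19 of gestation after 3 h of 100% oxygen given to the dam (here the oxygen ductus), and fetal aorta and fetal ductus (day 19 of gestation, dams in normal air). The aorta comprised arch and thoracic part, and the ductus arteriosus is the fetal shunt between pulmonary artery and aorta. Newborn vessels were dissected in medium with 12.5% oxygen and fetal vessels in medium with 2.5% oxygen, and per the labels all were freed of adhering tissue. No strain, sex or number of animals per array is given there. The study compared ductus and aorta before and after birth to find genes that mark each state.

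RNA of every state was read on 3 kinds of Affymetrix rat chip, named A, B and C, with a single hybridisation each, which makes 15 arrays. With 1 array per state and chip type there were no replicates, so every ratio sets 2 arrays against each other, no test was possible, and the number of arrays limits the precision. The floor, the pooled median of a chip, was a signal of 149.8 for chip A, 241.7 for B and 243.0 for C, and 46.9% to 51.8% of an array's probe sets lay above it. A signal under the floor was set to the floor, so a ratio against it is a lower bound ("at least"), and no ratio was formed when both arrays were under it. In the absence of replicates, probe sets of 1 gene on different chips show how far probes and hybridisations disagree, though not how far animals or dissections differ: their log2 ratios of newborn aorta over newborn ductus differed by a median of 0.28 and by up to 0.93 in 95% of 2170 such pairs.

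White adipocytes store fatty acids as triglyceride, and brown adipocytes burn them for heat through uncoupled respiration, which keeps newborn rodents warm. Both cell types depend on the nuclear receptor Pparg, take up fatty acids with the help of Lpl and Fabp4, and esterify them to glycerol phosphate supplied by Gpd1 and Pck1. In rodents the thoracic aorta lies in a sheath of perivascular fat that resembles brown fat, while several of these genes are also active outside adipocytes, Pck1 in liver and Car3 in skeletal muscle and liver.

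The start regions of some of the genes are shown first, to show which known promoter elements genes selected for 1 shared pattern have. RefSeq windows of build GRCr8, from 250 bases before to 50 after the annotated start, were found for 5 of the 10 genes, 6 windows in all, since Pparg has 2 starts. Those of Ucp1, of the second start of Pparg, of Adipoq and of Pck1 follow, 5′ to 3′ in the direction of transcription, with every motif match in capitals. They lie on chr19:41721372-41721671 (minus strand), chr4:150154522-150154821 (plus strand), chr11:91240120-91240419 (minus strand) and chr3:182348322-182348621 (plus strand).
Ucp1: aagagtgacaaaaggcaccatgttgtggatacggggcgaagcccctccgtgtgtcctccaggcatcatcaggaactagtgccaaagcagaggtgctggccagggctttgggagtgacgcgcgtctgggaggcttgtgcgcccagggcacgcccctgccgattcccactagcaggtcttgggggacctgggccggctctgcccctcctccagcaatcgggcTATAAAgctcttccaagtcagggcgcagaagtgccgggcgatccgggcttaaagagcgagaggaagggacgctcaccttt
Pparg, second start: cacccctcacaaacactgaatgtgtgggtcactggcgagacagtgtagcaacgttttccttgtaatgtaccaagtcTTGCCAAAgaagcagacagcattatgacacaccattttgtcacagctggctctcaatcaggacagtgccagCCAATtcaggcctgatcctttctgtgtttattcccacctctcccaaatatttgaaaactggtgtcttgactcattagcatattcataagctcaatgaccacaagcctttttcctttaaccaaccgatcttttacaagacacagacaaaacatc
Adipoq: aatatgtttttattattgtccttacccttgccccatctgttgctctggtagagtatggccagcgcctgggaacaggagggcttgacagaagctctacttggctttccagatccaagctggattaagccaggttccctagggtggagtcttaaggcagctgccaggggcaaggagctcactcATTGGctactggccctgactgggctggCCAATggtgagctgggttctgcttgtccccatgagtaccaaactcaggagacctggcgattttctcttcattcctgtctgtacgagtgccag
Pck1: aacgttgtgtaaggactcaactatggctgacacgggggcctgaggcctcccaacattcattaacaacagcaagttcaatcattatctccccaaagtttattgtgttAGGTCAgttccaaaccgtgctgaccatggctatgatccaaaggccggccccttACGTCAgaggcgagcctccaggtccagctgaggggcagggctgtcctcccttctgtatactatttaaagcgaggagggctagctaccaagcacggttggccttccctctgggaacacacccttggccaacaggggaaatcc

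Both strands were searched for TATAAA (the TATA box), CCAAT (the CCAAT box), for ACGTCA (a half-site of the cAMP response element), AGGTCA (a nuclear receptor half-site) and TTGCNNAA (a core of C/EBP sites), and the matches found did not overlap. Ucp1 held TATAAA 30 bases before its start. Pck1 held ACGTCA 91 bases and AGGTCA 144 bases before its start. The second start of Pparg held CCAAT 103 bases and a match to TTGCNNAA 174 bases before it, and Adipoq held CCAAT 42 bases before its start and, on the other strand, 69 bases before it. Among 33469 rat windows of the same length, TATAAA was found in 14.2%, CCAAT in 37.5%, ACGTCA in 7.94%, AGGTCA in 16.2% and TTGCNNAA in 10.6%. No motif was common to the 6 windows: CCAAT was in 3, TATAAA in 2 and each of the others in 1. Of these, the CCAAT of Cidea began at base 3 after the start, and the TATAAA of the first start of Pparg lay on the other strand from base 29 after it, so both were downstream of the start. These matches describe letters and are not evidence of binding.

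In the newborn aorta all 10 genes were above the floor, and each had its highest signal there. For 5 of them (Ucp1, Pparg, Adipoq, Gpd1 and Pck1) the newborn aorta was the only state above the floor at the brightest probe set, while Cidea, Lpl and Dgat2 were above it in all 5 states. A gene that passes the floor only where it is high had to differ, so the count of genes past a fold is no support by itself. Signals of different probe sets are not compared with each other, since each has its own hybridisation strength. In whole tissue, fewer cells of a type and less RNA per cell cannot be told apart.

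**Figure D1:**
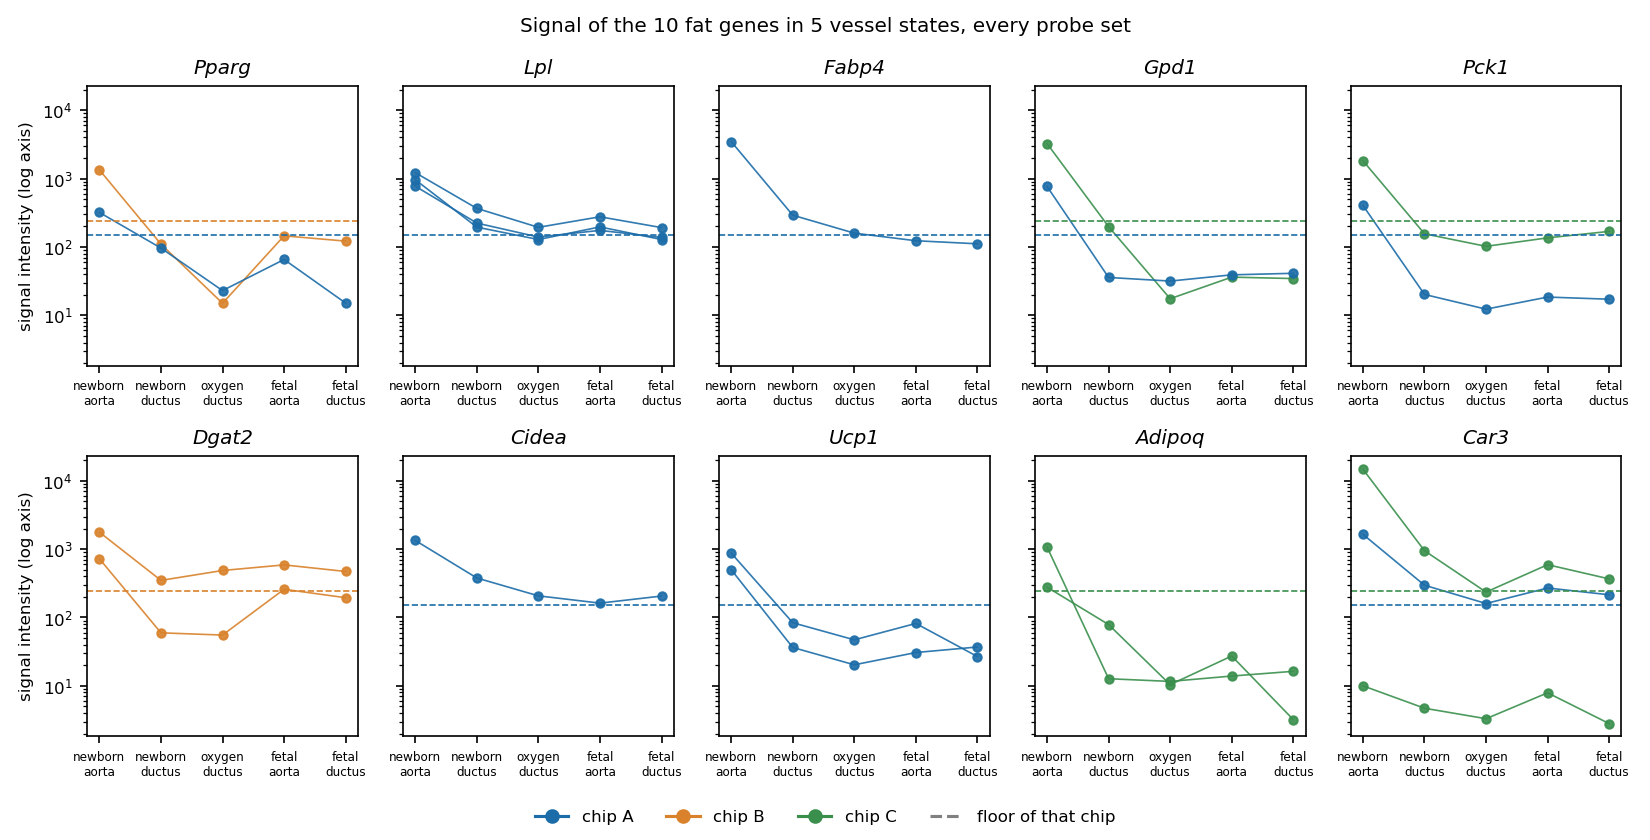
Signal intensity (log axis) of every probe set of the 10 genes in the 5 states, 1 array per point, with lines joining the points of a probe set and dashed lines at the floor of each chip. The newborn aorta is the highest point of all 20 probe sets, and 1 probe set of Car3 stays under the floor in every state.

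Pparg is the transcription factor that drives adipocyte differentiation. Its brightest probe set (chip B) gave 1343 in the newborn aorta, against 110.0 in the newborn ductus, 15 in the oxygen ductus, 146 in the fetal aorta and 122 in the fetal ductus. The newborn aorta was thus at least 5.56-fold above the newborn ductus and the fetal aorta, whose signals, like those of the other ductus samples, lay under the floor. The second probe set (chip A) gave 320 in the newborn aorta and 15.1 to 96.4 in the other states, again all under the floor.

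Lpl, the lipase that frees fatty acids from circulating lipoproteins at the capillary wall, was read by 3 probe sets of chip A. The brightest gave 1223 in the newborn aorta, against 367 in the newborn ductus, 194 in the oxygen ductus, 277 in the fetal aorta and 192 in the fetal ductus. All 5 states were above the floor, and the newborn aorta was 3.33-fold above the newborn ductus and 4.42-fold above the fetal aorta. The other probe sets gave 4.94-fold and 3.47-fold against the newborn ductus, and 4.90-fold and 4.43-fold against the fetal aorta.

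Fabp4, a carrier of fatty acids in the adipocyte cytoplasm, has 1 probe set (chip A). Its signal was 3489 in the newborn aorta, against 292 in the newborn ductus, 159 in the oxygen ductus, 123 in the fetal aorta and 111 in the fetal ductus. The newborn aorta was 12-fold above the newborn ductus, which was itself above the floor, and at least 23.3-fold above the fetal aorta, which was not.

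Gpd1 makes the glycerol phosphate to which fatty acids are attached. On chip C it gave 3258 in the newborn aorta, against 198 in the newborn ductus, 17.5 in the oxygen ductus, 36.2 in the fetal aorta and 34.5 in the fetal ductus. Only the newborn aorta was above the floor, at least 13.4-fold higher than either the newborn ductus or the fetal aorta. On chip A the newborn aorta had 769 and the other states 31.7 to 41.2, which gave at least 5.13-fold in both comparisons.

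Pck1, the cytosolic phosphoenolpyruvate carboxykinase, feeds glycerol phosphate synthesis in fat and glucose synthesis in liver. Its chip C signal was 1829 in the newborn aorta, against 156 in the newborn ductus, 102 in the oxygen ductus, 136 in the fetal aorta and 169 in the fetal ductus, at least 7.53-fold higher in both comparisons. On chip A it was 406 in the newborn aorta and 12.3 to 20.2 elsewhere, at least 2.71-fold. Every state other than the newborn aorta was under the floor on both chips.

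Dgat2 joins the last fatty acid to diacylglycerol to form triglyceride. Its brightest probe set (chip B) gave 1770 in the newborn aorta, against 349 in the newborn ductus, 487 in the oxygen ductus, 588 in the fetal aorta and 471 in the fetal ductus. The newborn aorta was 5.07-fold above the newborn ductus and 3.01-fold above the fetal aorta. In contrast to the genes above, Dgat2 had its lowest signal in the newborn ductus. The second probe set, on the same chip, gave 723 in the newborn aorta, against 59.6 in the newborn ductus, 55.3 in the oxygen ductus, 259 in the fetal aorta and 195 in the fetal ductus, at least 2.99-fold above the newborn ductus and 2.79-fold above the fetal aorta.

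Cidea is a lipid droplet protein that is abundant in rodent brown fat. It gave 1339 in the newborn aorta, against 378 in the newborn ductus, 207 in the oxygen ductus, 162 in the fetal aorta and 206 in the fetal ductus (chip A). The newborn aorta was 3.54-fold above the newborn ductus and 8.26-fold above the fetal aorta, in which Cidea had its lowest signal.

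Ucp1, the uncoupling protein of brown fat mitochondria, had 2 probe sets on chip A. The brighter gave 876 in the newborn aorta, against 83.8 in the newborn ductus, 47.1 in the oxygen ductus, 81.8 in the fetal aorta and 26.8 in the fetal ductus. Only the newborn aorta was above the floor, at least 5.85-fold higher in both comparisons. The dimmer gave 501 in the newborn aorta and 20.3 to 37.0 elsewhere, at least 3.35-fold.

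Adipoq encodes adiponectin, a hormone secreted by adipocytes. Its brighter probe set (chip C) gave 1075 in the newborn aorta, against 12.7 in the newborn ductus, 11.6 in the oxygen ductus, 13.9 in the fetal aorta and 16.3 in the fetal ductus, at least 4.42-fold higher in both comparisons. The other, also on chip C, gave 278 in the newborn aorta and 3.2 to 78.7 elsewhere. It was barely above the floor in the newborn aorta, so its bound was only 1.14-fold.

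Car3, a cytosolic carbonic anhydrase of adipocytes and slow skeletal muscle, was measured above the floor in 4 of the 5 states on chip C and in all 5 on chip A. Its brightest probe set (chip C) gave 14774 in the newborn aorta, against 948 in the newborn ductus, 235 in the oxygen ductus, 592 in the fetal aorta and 367 in the fetal ductus, 15.6-fold above the newborn ductus and 25-fold above the fetal aorta. A probe set on chip A gave 1647 in the newborn aorta, against 296 in the newborn ductus, 160 in the oxygen ductus, 270.0 in the fetal aorta and 215 in the fetal ductus, 5.56-fold and 6.10-fold. The direction was the same on both chips, but the log2 ratios differed by 1.49 and 2.03, more than 95% of the pairs of probe sets of 1 gene on different chips (up to 0.93 and 0.97), so the size of the Car3 difference depends on the probe set. The other chip C probe set gave 10 in the newborn aorta and 2.8 to 7.9 elsewhere, under the floor throughout.

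Against the newborn ductus, 10 of 10 genes were at least 2-fold higher in the newborn aorta and their log2 ratios had a median of 2.5, while 1.18% of 7528 genes compared reached 2-fold upwards and 1.25% downwards, with a median of 0.01. Their places among all genes of that comparison, counted from the highest, were 1 for Car3, 2 for Gpd1, 3 for Fabp4, 4 for Pck1, 6 for Ucp1, 8 for Pparg, 9 for Dgat2, 10 for Adipoq, 16 for Cidea and 18 for Lpl. The places of Gpd1, Pck1, Ucp1, Pparg and Adipoq rest on bounds, so they follow the newborn aorta signal over the floor, and the true place may be higher. Against the fetal aorta, 10 of 10 were again at least 2-fold higher, with a median log2 ratio of 2.7, where 2.12% of 7676 genes were at least 2-fold higher and 2.71% lower, with a median of -0.05. The places there, which for those 5 genes and Fabp4 rest on bounds, ran from 1 for Car3 and 2 for Fabp4 to 43 for Dgat2. Both comparisons use the same newborn aorta arrays, and the genes were selected on this difference, so nothing is read from these counts. By probe set, 18 of the 19 that could be compared were at least 2-fold higher in each comparison, and the exception was the dimmer probe set of Adipoq.

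**Figure D2:**
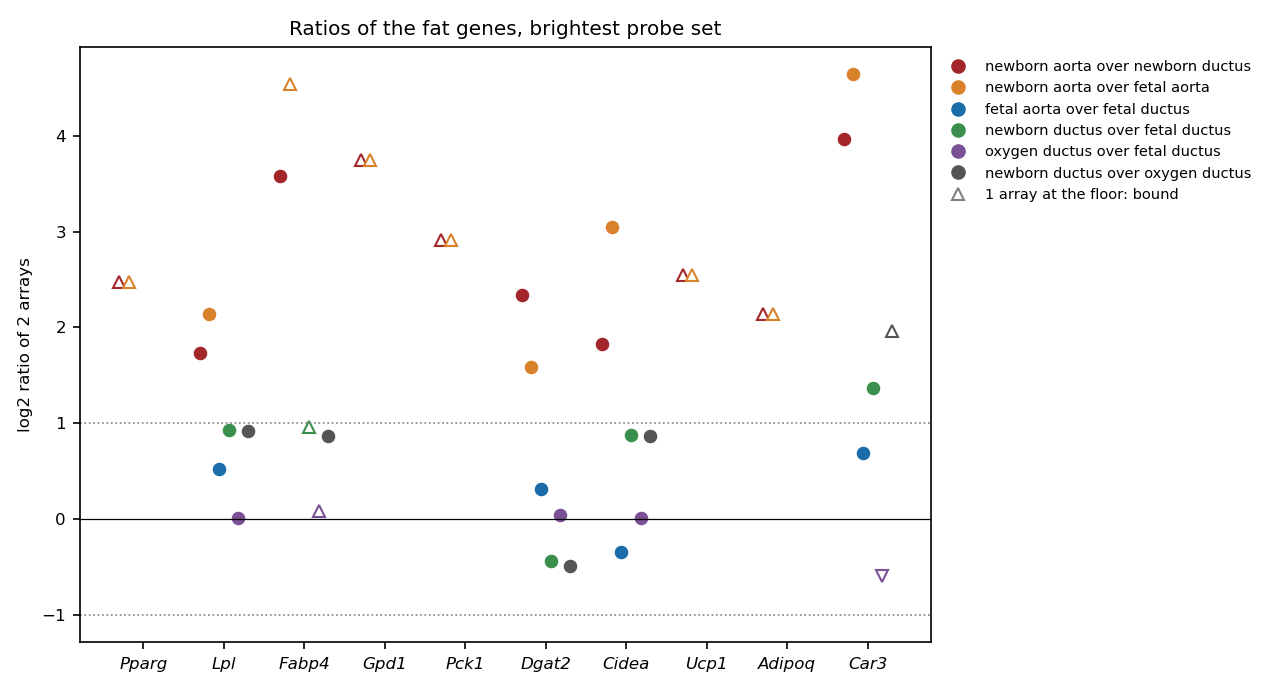
Log2 ratios of 2 arrays for the 10 genes at their brightest probe set in the 6 comparisons, with filled circles where both arrays were above the floor, triangles for bounds and dotted lines at 2-fold. The ratios of the newborn aorta over newborn ductus and over fetal aorta lie between 1.59 and 4.64, and most others lie between the dotted lines.

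Between the other states the same genes had smaller ratios. In the fetal aorta against the fetal ductus, 4 of the 10 could be compared and 0 were at least 2-fold higher or lower, where 0.959% of 7610 genes were higher and 0.959% lower. Car3 was 1.61-fold, Lpl 1.44-fold and Dgat2 1.25-fold higher in the fetal aorta, and Cidea had a log2 ratio of -0.34, all within the central 95% of genes above the floor on both arrays (-0.69 to 0.72). The other 6 genes were under the floor in both fetal vessels. The genes were selected for a newborn aorta signal above the other states, and both fetal vessels are among these. Low signals in both fetal vessels, and so small or missing fetal ratios, go with that selection, and nothing is read from them. The fetal ratios also share the fetal aorta arrays with the comparison above.

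In the newborn ductus against the fetal ductus, 5 genes could be compared and 1 was at least 2-fold higher, against 1.72% of 7551 genes higher and 1.8% lower. That gene was Car3 (2.58-fold on chip C, but 1.38-fold on chip A). Fabp4 was at least 1.95-fold, Lpl 1.91-fold and Cidea 1.84-fold higher in the newborn ductus, and Dgat2 had a log2 ratio of -0.43. The median of the 5 log2 ratios was 0.93, against -0.05 over all genes compared. Fabp4 had a fetal ductus signal under the floor (111), so its ratio could only come out as higher. The genes without a ratio were under the floor on both arrays. Nothing is therefore read from this median. The log2 ratio of Lpl (0.93) lay just outside the central 95% of genes above the floor on both arrays (-0.91 to 0.88). Cidea (0.88) was at the edge of that range. The other Lpl probe sets gave at least 1.3-fold and at least 1.49-fold, with the fetal ductus under the floor. At their brightest probe sets Car3, Lpl, Cidea and Dgat2 were above the floor on every array concerned. The second Dgat2 probe set was under the floor in the newborn ductus (59.6) and the fetal ductus (195). The ductus ratio of Dgat2 thus rests on its brightest probe set alone. For Car3 newborn over fetal was 2.58-fold in the ductus and 25-fold in the aorta on chip C, and 1.38-fold and 6.10-fold on chip A. The ratio was 1.91-fold in the ductus and 4.42-fold in the aorta for Lpl, and 1.84-fold in the ductus and 8.26-fold in the aorta for Cidea. Dgat2 was 3.01-fold higher in the newborn aorta while its ductus log2 ratio was -0.43. The genes were selected for a newborn aorta signal above the other states, so a larger ratio in the aorta goes with that selection. Nothing is read from these differences between vessels, and none was tested. The summed signal of the 10 genes was 2894 in the newborn ductus and 1716 in the fetal ductus.

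Maternal oxygen was the remaining condition. In the oxygen ductus against the fetal ductus, 0 of 5 genes compared were at least 2-fold apart, where 0.483% of 7457 genes were higher and 0.858% lower. Lpl and Cidea were each 1.01-fold, Dgat2 1.03-fold and Fabp4 at least 1.06-fold higher in the oxygen ductus, while Car3 had a log2 ratio of at most -0.59 on chip C, with the oxygen ductus under the floor, and of -0.42 on chip A. In the newborn ductus against the oxygen ductus, 1 of 5 was at least 2-fold higher, where 2.59% of 7534 genes were higher and 3.24% lower. Car3 was at least 3.90-fold higher in the newborn ductus on chip C but 1.85-fold on chip A, under the threshold. Lpl was 1.89-fold and Fabp4 and Cidea were each 1.83-fold higher in the newborn ductus, and Dgat2 had a log2 ratio of -0.48. The other Lpl probe sets gave at least 1.3-fold and at least 1.49-fold, with the oxygen ductus under the floor. The ductus comparisons share arrays, so their values are given side by side only.

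The order of the states below the newborn aorta differed between genes. At the brightest probe set, the second highest signal was in the newborn ductus for 6 genes (Fabp4, Ucp1, Cidea, Car3, Gpd1 and Lpl), in the fetal aorta for 2 (Pparg and Dgat2) and in the fetal ductus for 2 (Adipoq and Pck1). For Ucp1, Pparg, Adipoq, Gpd1 and Pck1 these lower signals were all under the floor and have no order that can be relied on.

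Over all 5 states, 33 of 8027 genes (0.411%) were at least 2-fold higher in the newborn aorta than in the highest of the other 4 states, and the 10 genes were among them, with places from 1 to 13 when bounds are taken at their value. The same count was 12 for the newborn ductus, 8 for the oxygen ductus, 23 for the fetal aorta and 2 for the fetal ductus. None of the 10 genes could be in these counts, since each was selected for, and had, its highest signal in the newborn aorta. Of the other 23 genes of the newborn aorta, 7 were in a list of 46 further adipocyte genes, of which 38 are on the chips. A list of 38 genes of brown fat heat production, 28 of them on the chips, held 1, and 13 were in no list used here. The chips hold 10969 named genes. The lists were chosen with earlier results of these data known, so no excess of fat genes is read from these counts. Likeness was measured as the fold of the newborn aorta over the highest other state, across the 5 arrays of a chip, for genes at or above the 75th percentile of chip signals in the newborn aorta. The most alike was Mgst1, a membrane-bound glutathione transferase, at 4.95-fold (2421 in the newborn aorta and 420 to 489 elsewhere). It was followed by Chchd10, a mitochondrial protein (3.70-fold), Acsl1, which activates fatty acids (3.60-fold), Agpat2, an acyltransferase of triglyceride synthesis (at least 2.84-fold), Coq8a (2.62-fold), Aqp7, the glycerol channel of adipocytes (2.58-fold) and Nnat (2.47-fold). The remaining genes of the 15 most alike were Cfb, S100a9, Col15a1, Tfrc, Gpihbp1, Hspa9, Pcp4 and Tmem120a, at 1.98-fold to 2.33-fold. Gpihbp1 is the endothelial protein that holds Lpl at the capillary wall, and it gave 722 in the newborn aorta, against 274 in the newborn ductus, 183 in the oxygen ductus, 254 in the fetal aorta and 344 in the fetal ductus.

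**Figure D3:**
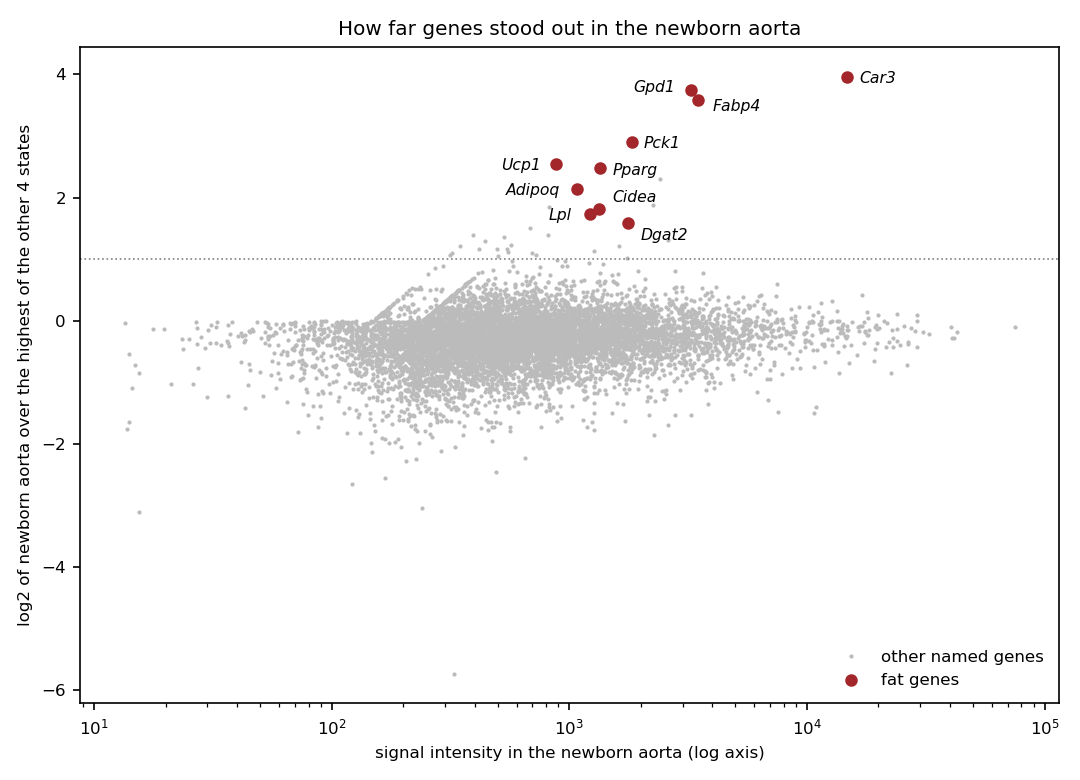
Log2 of the newborn aorta signal over the highest of the other 4 states (signals under the floor set to it) against the newborn aorta signal (log axis), 1 point per gene, for 8027 named genes. The 10 fat genes, in red, lie at 1.59 to 3.96, and the dotted line marks 2-fold, which 33 genes reached.

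Part of a list of other fat genes, chosen with earlier results of these data known, showed the pattern. Of 38 further adipocyte genes on the chips, 30 could be compared between newborn aorta and newborn ductus, and 8 were at least 2-fold higher and 0 lower, where 1.18% of all genes were higher, with a median log2 ratio of 0.26 against 0.01. Between newborn aorta and fetal aorta, 9 of 31 were at least 2-fold higher and 0 lower, where 2.12% of all genes were higher, with a median of 0.19 against -0.05. With bounds taken at their value, the 4 furthest above the fetal aorta were Acsl1 (820 in the newborn aorta and 152 in the fetal aorta), Cebpb, a transcription factor of early adipocyte differentiation (788 in the newborn aorta and 233 in the fetal aorta), Pnpla2, the triglyceride lipase (1208 in the newborn aorta and 408 in the fetal aorta), and Agpat2 (686 in the newborn aorta, with the fetal aorta under the floor at 23.0). Cebpb was not higher than in the newborn ductus, where it had 929, against 355 in the fetal ductus. Cfd (314 in the newborn aorta and 17 in the fetal aorta) and Cd36 (393 in the newborn aorta and 73.1 in the fetal aorta) were also known only by bounds, so their true place is unknown. Agpat2, Cfd and Cd36 were above the floor in the newborn aorta alone and could only count as higher. The counts of this list are therefore a description, and nothing is read from them. Fasn, the fatty acid synthase, had 733 in the newborn aorta and 997 in the fetal aorta, and Acly, which supplies its acetyl-CoA, had 1490 in the newborn aorta and 2210 in the fetal aorta. Plin1, the coat protein of adipocyte lipid droplets, and Cebpa, a partner of Pparg, were under the floor in all 5 states, so no ratio was formed. Plin1 gave 87.6 in the newborn aorta and 6.8 to 15.2 elsewhere, and Cebpa 61.4 in the newborn aorta and 26.4 to 48.8 elsewhere. Lep (leptin) was read at 2468 in the newborn aorta, against 3116 in the newborn ductus, 1953 in the oxygen ductus, 2803 in the fetal aorta and 2316 in the fetal ductus, and so did not follow the 10 genes. Fasn, Acly, Cfd, Cd36, Plin1, Cebpa and Lep were chosen after their values were seen.

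Of 28 genes of brown fat heat production and mitochondrial fatty acid oxidation on the chips, 2 of 21 were at least 2-fold higher (Chchd10 and Cpt2) and 2 lower (Pdk4 and Kcnk3) in the newborn aorta than in the newborn ductus, with a median of 0.47. Over all genes 1.18% were higher and 1.25% lower, with a median of 0.01. Against the fetal aorta, 2 of 21 were at least 2-fold higher (Chchd10 and Acadm) and 0 lower, with a median of 0.48. Over all genes 2.12% were higher and 2.71% lower, with a median of -0.05. Ppargc1a, the coactivator that switches on mitochondrial genes, and Dio2, the thyroid hormone deiodinase of brown fat, both chosen after their values were seen, were under the floor in all states. Of 14 genes of fat progenitors, 0 of 11 were at least 2-fold apart from the newborn ductus, which among so few genes lies near the shares over all genes. Against the fetal aorta 0 of 12 were higher and 2 lower in the newborn aorta, Pdgfra (644 in the newborn aorta and 1323 in the fetal aorta) and Dlk1 (2151 in the newborn aorta and 5042 in the fetal aorta), both marks of immature adipocyte precursors.

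**Figure D4:**
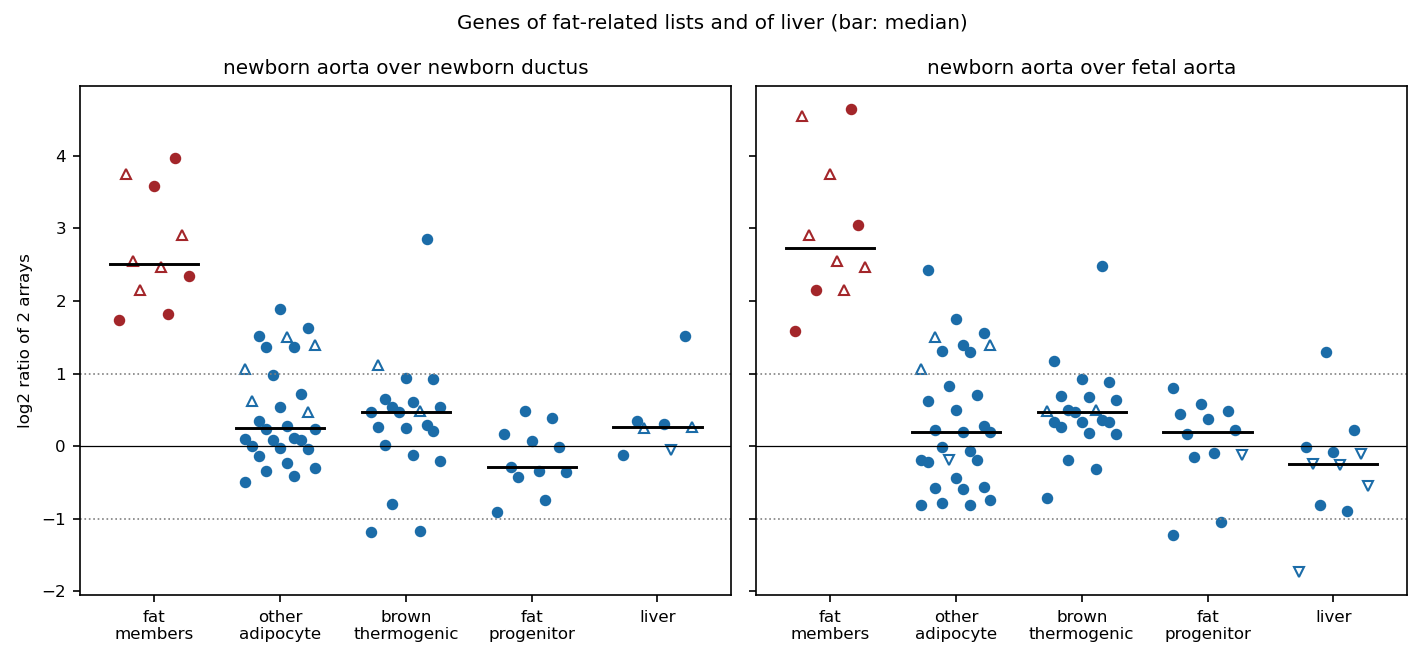
Log2 ratios of the newborn aorta over newborn ductus (left) and over fetal aorta (right) for the genes of 5 lists at their brightest probe set, with triangles for bounds, bars at the list's median and dotted lines at 2-fold. The medians of the 10 selected genes are 2.5 and 2.7, those of the further adipocyte genes 0.26 and 0.19.

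Since Pck1 and Car3 are also genes of liver and muscle, the markers of those tissues stand beside them. Of 20 liver genes, 14 were under the floor in the newborn aorta, among them Alb (albumin, 87.5) and Tat (9.2, chosen after its value was seen). Against the newborn ductus, 1 of 7 liver genes compared was at least 2-fold higher (Rbp4, which fat also makes) and 0 lower. Over all genes 1.18% were higher and 1.25% lower. Against the fetal aorta, 1 of 11 was higher (Rbp4) and 1 lower (Alb, 497 in the fetal aorta). Over all genes 2.12% were higher and 2.71% lower. Of the skeletal muscle genes 0 of 10 were at least 2-fold apart from the newborn ductus. Against the fetal aorta 0 of 11 skeletal muscle genes were higher and 1 lower. Among so few genes, a count of 0 lies near the shares over all genes. Nothing is read from the liver and muscle counts about either tissue.

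Summed signals of other lists, among them markers of tissues that a dissected vessel could carry, stand beside those of the 10 genes, which were selected for a high newborn aorta signal. The summed signal of the 10 genes was 30980 in the newborn aorta, 2894 in the newborn ductus and 2156 in the fetal aorta, a ratio of 10.7 and of 14.4. Car3 made up 14774 of the first sum. For the further adipocyte genes the ratio was 1.18 over the newborn ductus and 1.06 over the fetal aorta, for brown fat heat production 1.34 and 1.37, and for fat progenitors 0.803 and 0.789, all within the range of the lists of other tissues. Over all 15 other lists the ratio ran from 0.584 (airway and cartilage) to 1.91 (mesothelium, the lining of the chest cavity) for newborn aorta over newborn ductus. For newborn aorta over fetal aorta it ran from 0.48 (nerve and chromaffin cells) to 1.76 (glucocorticoid and cAMP responsive genes). A sum follows its brightest genes, and single genes moved further: the erythroid gene Hbe1, a globin chosen after its values were seen, had a log2 ratio of -5.73 for newborn aorta over fetal aorta. In mesothelium 2 of 7 genes compared were at least 2-fold higher in the newborn aorta than in the newborn ductus, Msln (mesothelin, 1392 in the newborn aorta and 316 in the newborn ductus) and Efemp1, with 7 of 9 mesothelial genes on the chips compared. In the same comparison 4 of 13 heart muscle genes were higher and 1 lower, where 1.18% of all genes were higher and 1.25% lower. Against the fetal aorta 4 of 12 heart muscle genes were at least 2-fold higher and 0 lower, where 2.12% of all genes were higher and 2.71% lower. The heart list's sum ratio was 1.35 against the newborn ductus and 1.41 against the fetal aorta. Contractile smooth muscle genes, which mark the vessel wall itself, had a sum ratio of 0.624 against the newborn ductus and 1.31 against the fetal aorta. The part of fat left on the vessel in the 10 genes' signals, and that of a change within the vessel wall, was not tested, and the samples hold no separate measure of either.

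**Figure D5:**
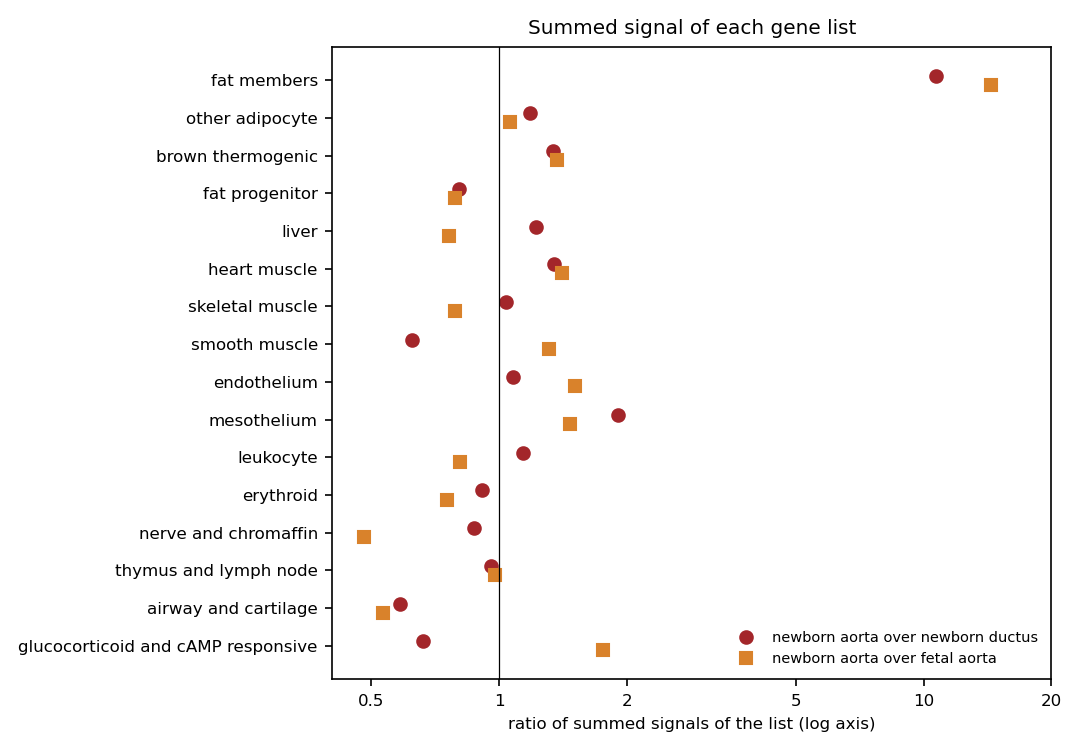
Ratio of the summed signals of each of 16 gene lists (log axis), for newborn aorta over newborn ductus (circles) and over fetal aorta (squares). The 10 selected fat genes are at 10.7 and 14.4, and the other 15 lists lie between 0.48 and 1.91.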

How the data were processed

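RNA of 5 vessel states was measured on 3 Affymetrix chip types, 15 arrays. The deposited values are linear signal intensities, for which the submitters' processing notes name MAS5 on 4 arrays of chip A and no software for the others. The mean of each deposited array, trimmed by 2% at each end, was 500.32 to 500.9, so the authors' intensities had been scaled before deposit. No further scaling was done.

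Control probe sets were left out. Probe sets were named from GEO's platform annotation, updated through the RefSeq gene table where the gene number matched (18122 of 18178 with 1 gene), and a gene was read at its probe set of highest mean signal. Signals under the chip's pooled median were set to that floor. Ratios of 2 states were counted as apart at 2-fold, among genes with either array above the floor, in Python 3.11.15 with pandas 2.3.3 and numpy 2.4.6. No test was made. The procedure was tested on simulated data.

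States came from titles, except for the newborn aorta of chip A, whose title counts its 3 h from coitum and whose description says newborn. All 10 genes and the gene lists were chosen with earlier results of these data known. Named from other lists were up to 4 genes with the largest ratio of newborn aorta over fetal aorta. Some genes that made up a count at 2-fold, such as Cpt2, Pdk4 and Kcnk3, were named as well, and so were the 15 genes most like the 10. Besides these, genes said to be chosen after their values were seen were named. Other genes behind a count, such as those of heart muscle, were not named. The alternatives were other floors, folds, quantile normalization and the mean of all probe sets, and, added after seeing the data, chip A alone or left out.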

Additional observations from a re-analysis of the deposited data

Results flagged for a closer look

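For Cidea the vessel difference had opposite signs at the 2 stages: the log2 ratio of aorta over ductus was 1.82 in newborns and -0.34 in fetuses. Dgat2 had opposite signs of newborn over fetal in the 2 vessels, with a log2 ratio of 1.59 in the aorta and -0.43 in the ductus. The ratios of 1.82 and 1.59 have the newborn aorta on top, for which the genes were selected, so their sign was set by that selection. Nothing is therefore read from the opposite signs. Each value rests on 1 array per state and on the brightest probe set, and the difference between the ratios was not tested. The second Dgat2 probe set was under the floor in both the newborn and the fetal ductus. The ratios of -0.34 and -0.43 lay within the central 95% of genes above the floor on both arrays of their comparison.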

How the results depend on the processing

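Of 39 log2 ratios of the 10 genes, 0 changed direction under any alternative in which they could be computed, and quantile normalization moved none by over 1.5-fold. All 10 genes were past the fold threshold and higher in the newborn aorta, over newborn ductus and over fetal aorta, with either other floor, quantile normalization, the mean of all probe sets and thresholds of 1.5 and 3. Without chip A the count was 6 of 6 genes in each comparison, and also against the highest other state, and with chip A alone it was 8 of 8. Smaller counts moved. For newborn ductus over fetal ductus, 1 gene was higher in the setting reported, 2 with the floor halved, 4 at a fold of 1.5, and 0 at a fold of 3, with the mean of all probe sets or with chip A alone. For newborn ductus over oxygen ductus the count was 1 in the setting reported, 4 at a fold of 1.5, and 0 with the mean of all probe sets or chip A alone. At a fold of 1.5, 1 gene became higher for fetal aorta over fetal ductus and 1 lower for oxygen ductus over fetal ductus. The 33 genes at least 2-fold over the highest other state became 17 with the floor at the 65th percentile, 101 at a fold of 1.5, 13 at a fold of 3 and 16 without chip A. Counts over all genes moved with fold and floor: those higher in the newborn aorta than in the newborn ductus were 89 in the setting reported and 21 to 450 in the alternatives, and those higher than in the fetal aorta 163 and 44 to 581. The further adipocyte genes at least 2-fold higher numbered 8 against 2 to 11, and 9 against 2 to 12, in the same comparisons. Fewer genes were compared without chip A or with it alone, and the cause of the other shifts was not tested. Bounds follow the floor by construction. Leaving out a replicate was not possible, and no paired analysis was possible because each state had 1 array per chip type and no test was made. Signals under the floor limit Ucp1, Pparg, Adipoq, Gpd1 and Pck1 to bounds.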

Other observations

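Among 3435 probe sets that the annotation assigns to no gene or to several and that were above the floor in at least 1 state, 15 were at least 2-fold higher in the newborn aorta than in the highest of the other 4 states, and 3 at least 4-fold. The strongest, on chip A, gave 1338 in the newborn aorta, against 271 in the newborn ductus, 221 in the oxygen ductus, 204 in the fetal aorta and 134 in the fetal ductus. They are unnamed here, and whether any belongs to a fat gene was not tested.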
